A study of Mus musculus with 6 samples.

Results

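Reactive astrocyte genes were followed in bulk RNA sequencing of mouse locus coeruleus, the small noradrenergic nucleus of the pons. The set held 10 genes of the disease-associated astrocyte state, Gfap, Vim, Serpina3n, Osmr, Cd44, Igfbp5, S100a6, Id3, Clu and Ggta1, chosen by name and matched by Ensembl identifier, out of 56923 genes in the deposited table. All 10 were above the filter on low values, as were 16411 genes in all. The tissue came from 3 wild-type (WT) libraries, numbered 62, 63 and 66, and 3 libraries of 5xFAD transgenic mice, numbered 64, 65 and 79. The 5xFAD line carries mutant human transgenes, among them the amyloid precursor APP, driven in neurons by a mouse Thy1 cassette, and deposits amyloid, while astrocytes are not the cells in which that cassette is active. The labels state no treatment for either group. The sources used here do not give age, sex or background strain, or whether a library came from 1 animal or a pool.

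Astrocytes answer injury and protein deposits with a graded change called reactivity. They enlarge their processes and raise the intermediate filaments Gfap and vimentin, secrete protease inhibitors, chaperones and matrix proteins, and raise receptors for cytokines and for hyaluronan. Cytokines of the interleukin-6 family act through the shared receptor chain gp130 (Il6st) and the transcription factor Stat3, and bone morphogenetic proteins (BMPs) act through Smad factors on the Id genes. Around amyloid plaques a disease-associated state has been described that shares these genes. Gfap is low in much of the grey matter of healthy brain and is higher in the brainstem and white matter, so that a punch of the pons contains Gfap transcript without disease.

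Of the 10 genes, Gfap had the largest difference between the genotypes. Its mean normalized count was 1.54 times as high in 5xFAD as in WT, and the 3 5xFAD libraries lay above the 3 WT libraries. Cd44 and Igfbp5 had smaller differences in the same direction with overlapping groups, and S100a6 had a small one without overlap. Osmr, Ggta1, Vim and Clu had differences closer to 0 and Serpina3n and Id3 had lower means in 5xFAD. In the limma test over all genes none of the 10 passed an adjusted p of 0.05, where 0.00609% of the 16411 tested genes did, which was Thy1 alone. In the DESeq2 test on recovered reads Gfap passed (adjusted p = 0.0106), where 0.0244% of genes did, and in the authors' deposited table it passed as well (adjusted p = 0.0244), where 0.0106% of genes did. The edgeR test on recovered reads called none of the 10 (adjusted p = 0.9998 for Gfap), against 0.00609% of all genes.

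The sequence before the start of transcription is shown for the 4 genes with the largest differences, and for Vim, the filament partner of Gfap whose groups overlapped. The letters are the 250 bases before the start, from RefSeq (build GRCm38.p6, not the authors' build mm39), written 5′ to 3′ on the strand of the gene, with each CG dinucleotide in capitals.
Gfap (chr11:102897201-102897450, minus strand): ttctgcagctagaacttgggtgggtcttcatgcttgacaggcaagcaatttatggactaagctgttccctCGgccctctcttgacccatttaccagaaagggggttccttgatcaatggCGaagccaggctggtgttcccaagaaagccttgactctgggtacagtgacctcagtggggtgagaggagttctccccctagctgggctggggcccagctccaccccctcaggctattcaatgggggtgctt
Cd44 (chr2:102901666-102901915, minus strand): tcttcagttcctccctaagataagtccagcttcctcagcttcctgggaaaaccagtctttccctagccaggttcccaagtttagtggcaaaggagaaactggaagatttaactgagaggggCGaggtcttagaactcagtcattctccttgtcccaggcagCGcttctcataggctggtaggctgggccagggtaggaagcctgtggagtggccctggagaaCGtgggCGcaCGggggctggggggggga
Igfbp5 (chr1:72874866-72875115, minus strand): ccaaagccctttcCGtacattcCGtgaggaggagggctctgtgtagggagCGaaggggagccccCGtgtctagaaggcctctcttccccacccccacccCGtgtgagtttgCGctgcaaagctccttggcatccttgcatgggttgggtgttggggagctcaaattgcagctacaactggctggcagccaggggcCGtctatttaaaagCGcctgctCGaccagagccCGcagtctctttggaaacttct
S100a6 (chr3:90612644-90612893, plus strand): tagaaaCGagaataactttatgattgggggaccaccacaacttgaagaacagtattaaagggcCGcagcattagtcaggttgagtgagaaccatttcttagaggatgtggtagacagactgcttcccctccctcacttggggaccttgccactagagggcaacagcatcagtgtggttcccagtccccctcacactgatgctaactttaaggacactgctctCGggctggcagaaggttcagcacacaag
Vim (chr2:13574061-13574310, plus strand): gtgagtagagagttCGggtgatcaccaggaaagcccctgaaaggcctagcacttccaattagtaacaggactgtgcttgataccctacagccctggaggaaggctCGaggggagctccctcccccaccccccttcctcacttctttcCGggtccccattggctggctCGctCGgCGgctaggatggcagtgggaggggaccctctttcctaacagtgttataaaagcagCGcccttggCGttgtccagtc
The RefSeq table gave such a sequence for 9 of the 10 genes, and Clu had no entry. The stretches of Gfap, S100a6 and Cd44 held 2, 3 and 5 CG dinucleotides, below the median of 6 over 32851 promoter entries, while those of Igfbp5 and Vim held 10 and 8. Osmr and Id3, which are not shown, held 18 each and Serpina3n held 1. Of the 4 genes with the largest differences, 3 were thus below that median and Igfbp5 was above it, as Serpina3n was below it among the others. Both strands were searched for the palindrome TTCNNNGAA, bound by Stat factors, for TGANTCA, bound by AP-1 factors, and for GGCGCC, bound by BMP-regulated Smad factors. These letters were present in 7.02%, 6.75% and 9.59% of all entries and in 0 of the 9. The TATA box letters TATAAA were present in 12.4% of entries and in 2 of the 9, the promoters of Vim, 32 to 27 bases before the start, and of Ggta1, 220 to 215 bases before it. These matches describe the letters of this window alone.

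Library facts bear on all values that follow. The columns held 15158712 to 20079349 recovered reads per library, with the 3 WT libraries at 17362733 to 20079349 and the 3 5xFAD libraries at 15158712 to 17774759. Values are counts divided by a size factor per library, called normalized counts here, and differences are log2 fold changes (log2FC), positive where 5xFAD was higher, computed on log2(normalized count + 1) and given with their standard error (SE). Every mean, SD and log2FC rests on n = 3 libraries per group. All 18 astrocyte identity markers and all 6 noradrenergic markers were read in every library, with the noradrenaline-synthesizing enzyme Dbh at 1281 to 2895 normalized counts. In bulk tissue, a difference in the number of astrocytes and one in transcript per astrocyte cannot be told apart.

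Gfap (ENSMUSG00000020932.15) encodes glial fibrillary acidic protein, the main intermediate filament of astrocytes. It read 1576, 2117 and 1493 normalized counts in WT and 3074, 2397 and 2532 in 5xFAD, from 1462 to 2660 reads per library. The groups did not overlap, with 5xFAD 64 highest, and WT 63 stood above the other WT libraries and closest to 5xFAD. Mean and SD were 1728 ± 339 for WT and 2668 ± 358 for 5xFAD, giving a log2FC of 0.63 (SE 0.15, 95% interval 0.27 to 1.00), equal to a 1.55-fold difference with an interval of 1.21 to 2.00-fold. In the limma test its unadjusted p of 0.00451 ranked 16 among the 16411 genes and the adjusted p was 0.9995. Without WT 63 the log2 fold change was 0.79 (limma adjusted p = 0.235), and without 5xFAD 64 it was 0.53 (limma adjusted p = 0.9995).

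**Figure D1:**
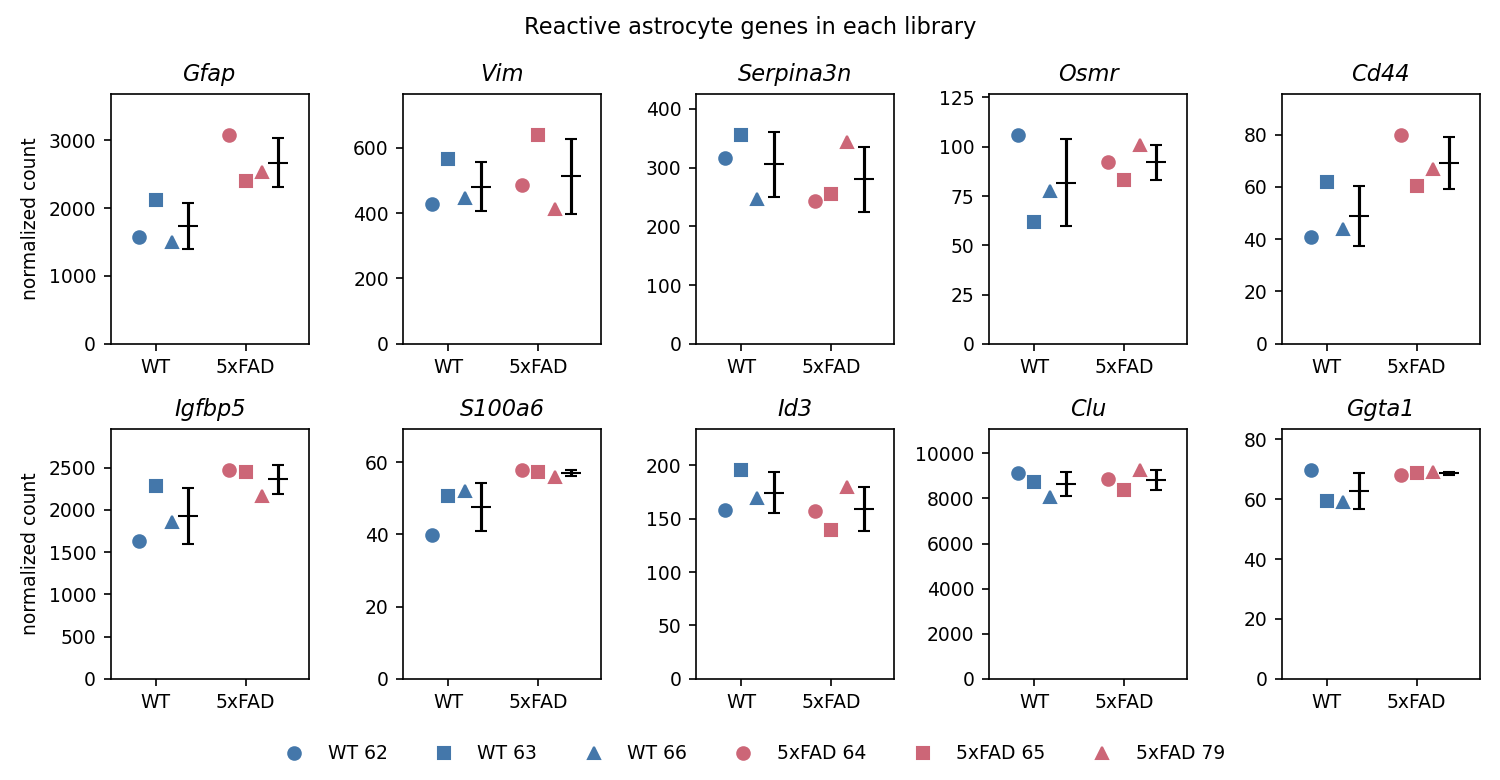
Normalized count (vertical axes, from 0) of each of the 10 genes in the 3 WT libraries (blue) and the 3 5xFAD libraries (red), 1 symbol per library, with the mean and SD of each group as a black bar. Gfap and S100a6 separate the groups, while the other 8 genes overlap.

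Vim (ENSMUSG00000026728.10) encodes vimentin, which assembles into filaments together with Gfap in reactive astrocytes and is also made by endothelial cells, fibroblasts and ependymal cells. It read 428, 567 and 447 normalized counts in WT and 485, 639 and 413 in 5xFAD. The highest and the lowest library were both 5xFAD, 65 and 79, so the groups overlapped fully. Its log2FC was 0.08 (SE 0.17, 95% interval −0.32 to 0.48), and it turned to −0.0913 without 5xFAD 65. The ratio of Gfap to Vim within a library, on the log2 scale, came to 1.88, 1.90 and 1.74 in WT libraries and to 2.66, 1.91 and 2.61 in 5xFAD libraries. It differed by 0.56 between the groups, though WT 63 and 5xFAD 65 were nearly equal (two-sided exact permutation p = 0.1, the smallest that 3 against 3 allows, and 0.1 after adjustment over 4 such ratios). The ratio of Gfap to the mean of the 18 astrocyte identity markers differed by 0.66 and that to Clu by 0.61, with no overlap in either (exact permutation p = 0.1 each). On the same scale, the difference of Gfap without a ratio was 0.63. Whether astrocyte number had a part in these differences was not tested.

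Vim was highest in WT 63 and 5xFAD 65 within their groups. Among 4 Bergmann glia markers, Gdf10, a growth factor that marks the Bergmann glia of the neighbouring cerebellum, was highest in the same libraries, at 18.6, 229 and 59.2 normalized counts in WT and 124, 332 and 86.0 in 5xFAD. The other markers of the list, Hopx, Hepacam and Fabp7, did not share this order, and the summed level of all 4 was lowest in WT 63. That sum was 3234 to 3685 in WT and 3427 to 3666 in 5xFAD, and none was at 0. The part of these cells in the Vim values was not tested. The other genes of the filament network held no called gene, with 0 of 8 past the limma threshold, 5 higher and 3 lower, and a median log2FC of 0.011 against 0.00053 over all tested genes. Nestin (Nes), a filament of progenitors and of reactive astrocytes, had the smallest p of them, at 269, 260 and 308 normalized counts in WT and 312, 243 and 363 in 5xFAD and a log2FC of 0.12 (SE 0.14). The most abundant were the linkers Dst, at 14556 to 16615, and the chaperone Cryab, at 2355 to 3924 normalized counts.

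Osmr (ENSMUSG00000022146.13), the receptor chain for oncostatin M that signals with gp130, read 106, 61.9 and 77.6 normalized counts in WT and 92.4, 83.2 and 101 in 5xFAD. WT 62 was the highest library and WT 63 the lowest, so the WT spread enclosed the 5xFAD values. The log2FC was 0.20 (SE 0.21, 95% interval −0.26 to 0.66), and it ranged from 0.020 without WT 63 to 0.40 without WT 62. Of the 17 other genes of the gp130 pathway, 13 were tested, of which 7 had higher and 6 lower values, 0 passed and the median log2FC was 0.029. The ligands were close to 0, with oncostatin M (Osm) at 0 to 1.16 and Il6 at 0 to 4.16 normalized counts. Among the receptors and kinases, Il6ra read 77.6 to 86.4 in WT and 90.0 to 105 in 5xFAD, and the kinase Tyk2 read 167 to 194 in WT and 199 to 240 in 5xFAD. Both had groups without overlap and a log2FC of 0.25 (SE 0.15 and 0.12), and neither passed in the limma test. The share of all tested genes that were higher in 5xFAD without overlap was 3.72%. Jak1, the kinase with the highest level, had a log2FC of −0.05 (SE 0.06). Downstream, Stat3 had one of 0.05 (SE 0.08) and the feedback inhibitor Socs3 one of −0.28 (SE 0.40), at 6.93 to 18.7 normalized counts. Stat3 and Socs3 were picked for mention after their values were seen.

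Cd44 (ENSMUSG00000005087.18), the surface receptor for hyaluronan, read 40.9, 61.9 and 43.9 normalized counts in WT and 79.7, 60.3 and 67.0 in 5xFAD. WT 63 stood slightly above 5xFAD 65, and the other 5 libraries kept to the order of the genotypes. The means were 48.9 ± 11.4 and 69.0 ± 9.87 (SD) in WT and 5xFAD, with a log2FC of 0.50 (SE 0.22, 95% interval 0.018 to 0.99). It had an unadjusted p of 0.0434 and an adjusted p of 0.9995 in the limma test. It rests on 43 to 72 reads per library, and the unadjusted p was 0.0552 with edgeR and 0.0961 with DESeq2. Cd44 followed Gfap through the 6 libraries more closely than any other of the 5575 tested genes with a symbol and at least 0.5 times the range of Gfap. The mean absolute difference of their centred log2 values was 0.082, where each gene was centred on its own mean. The next closest named genes were Gipc2, a scaffold of membrane proteins, at 0.10, and Tmem116, a membrane protein, at 0.11, and the other two of the nearest 5 were gene models without a name. These distances run over 6 libraries that share their genotype labels and size factors. Among the other 9 genes, Igfbp5 came next at 0.18 and S100a6 at 0.19, while Serpina3n and Id3 were the most distant, both at 0.38.

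**Figure D2:**
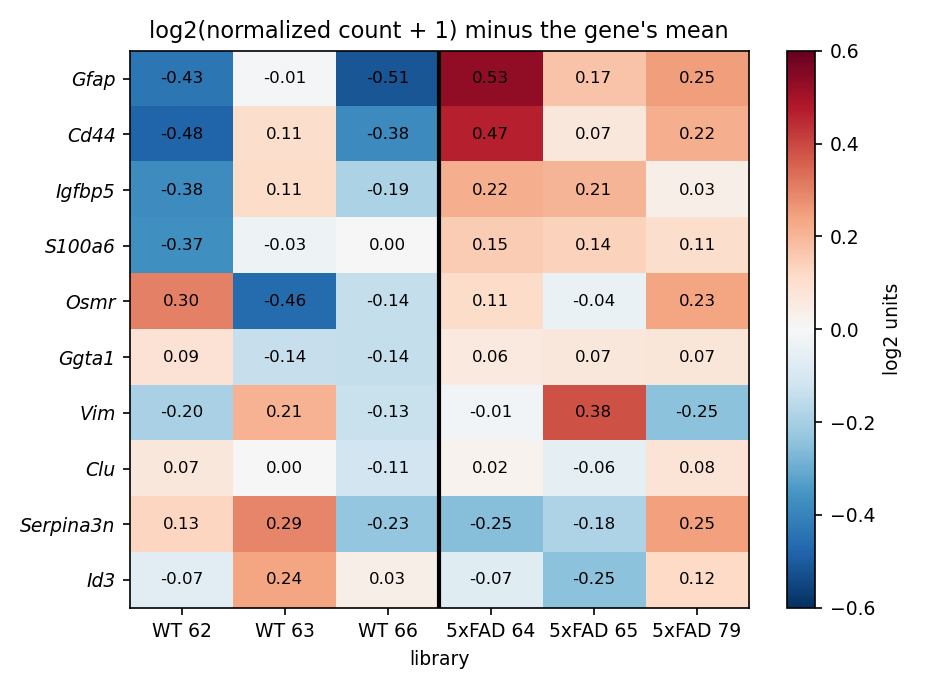
Level of the 10 genes (rows, ordered by log2FC) in each library (columns), as log2(normalized count + 1) minus the mean of the gene over the 6 libraries. Gfap and Cd44 share their order closely, with 5xFAD 64 highest, while Vim is highest in 5xFAD 65 and Serpina3n in WT 63.

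Among the partners of Cd44 no gene was called. Of 15 genes of hyaluronan synthesis and breakdown, matrix partners and linkers of Cd44 to the cytoskeleton, 14 were tested, of which 4 had higher and 10 lower values, with a median log2FC of −0.072 and 0 past the threshold. Neurocan (Ncan), a proteoglycan that binds hyaluronan, read 1220, 1151 and 1147 normalized counts in WT and 988, 1107 and 1117 in 5xFAD, a log2FC of −0.13 (SE 0.07) without overlap. It was the 1 of the 14 tested genes that was lower without overlap, against 3.70% of all tested genes. Cemip, a hyaluronan-degrading protein, had a log2FC of 0.57 (SE 0.36), with values of 66.4 to 143 in WT and 93.0 to 193 in 5xFAD, and ranged from 0.30 to 0.90 when 1 library was left out.

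Igfbp5 (ENSMUSG00000026185.9), a secreted protein that binds insulin-like growth factors (IGFs), read 1631, 2283 and 1857 normalized counts in WT and 2467, 2444 and 2167 in 5xFAD. WT 63 lay between 5xFAD 79 and 5xFAD 65, and the other WT libraries were below the 5xFAD libraries. The means were 1924 ± 331 and 2359 ± 167 (SD) in WT and 5xFAD, with a log2FC of 0.31 (SE 0.12, 95% interval 0.030 to 0.58). The unadjusted p was 0.0338 and the adjusted p 0.9995 in the limma test. Without WT 63 the log2FC was 0.44 (limma adjusted p = 0.741), and without WT 62 it was 0.19 (limma adjusted p = 1.000).

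In the IGF system beside Igfbp5, 9 of 10 genes were tested, of which 6 had higher and 3 lower values and 0 passed. Igfbp7, a matrix protein of vessels, read 129, 131 and 141 normalized counts in WT and 168, 157 and 175 in 5xFAD without overlap, a log2FC of 0.32 (SE 0.12). It was the 1 of the 9 tested genes that was higher without overlap, against 3.72% of all tested genes. Igf2, a growth factor made by meninges and choroid plexus in adult brain, read 597, 603 and 649 normalized counts in WT and 822, 1267 and 643 in 5xFAD, a log2FC of 0.50 (SE 0.24). Without 5xFAD 65, where fibroblast markers were highest, that of Igf2 was 0.24. Igfbp2 had a lower mean in 5xFAD, with a log2FC of −0.32 (SE 0.17). None of these passed in the limma test.

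Serpina3n (ENSMUSG00000021091.9), a secreted serine protease inhibitor used as a marker of reactive astrocytes, read 317, 355 and 246 normalized counts in WT and 243, 255 and 344 in 5xFAD. It was highest in WT 63 and lowest in 5xFAD 64, the library in which Gfap was highest. The log2FC was −0.13 (SE 0.17, 95% interval −0.51 to 0.26), which excluded a 1.5-fold difference either way in the main limma fit only. The log2FC was −0.011 (SE 0.18) without WT 63 and −0.28 (SE 0.15) without 5xFAD 79. The ratio of Gfap to Serpina3n, on the log2 scale, came to 2.31, 2.57 and 2.60 in WT libraries and to 3.66, 3.23 and 2.88 in 5xFAD libraries, a difference of 0.76 without overlap (exact permutation p = 0.1). Serpina3n belongs to a cluster of similar genes, among which reads can be shared. Of 10 such paralogs 8 were under the filter, and the level of all 10 together was 42.2 to 53.1 in WT and 42.0 to 45.8 in 5xFAD, against 243 to 355 for Serpina3n itself. The highest of them, Serpina3g, had a log2FC of −0.17 (SE 0.28).

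Clu (ENSMUSG00000022037.16), which encodes clusterin, a secreted chaperone and apolipoprotein that binds amyloid-beta, read 9138, 8747 and 8070 normalized counts in WT and 8848, 8370 and 9246 in 5xFAD. The groups overlapped, and the log2FC of 0.029 (SE 0.06, 95% interval −0.11 to 0.17) was the most narrowly bounded of the 10 genes. Its sign turned to −0.0205 without WT 66 and −0.00570 without 5xFAD 79. Clu is expressed by astrocytes and also by neurons, ependymal cells and choroid plexus. Choroid plexus markers were most abundant in WT 66, with the plasma carrier Ttr at 1107 normalized counts there and 10.2 to 61.2 in the other libraries, and Clu was lowest in WT 66. The part of choroid plexus in the Clu values was not tested. Of 10 other apolipoproteins and their receptors, 6 had higher and 4 lower values, with a median log2FC of 0.011 and 0 past the threshold.

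S100a6 (ENSMUSG00000001025.9), a small calcium-binding protein of reactive astrocytes and of ependymal and connective tissue cells, read 39.9, 50.8 and 52.1 normalized counts in WT and 57.8, 57.2 and 56.0 in 5xFAD. The groups did not overlap, and the 5xFAD libraries were close to each other. The means were 47.6 ± 6.66 and 57.0 ± 0.914 (SD) in WT and 5xFAD, with a log2FC of 0.26 (SE 0.19, 95% interval −0.16 to 0.69). WT 62 was the lowest library, and without it the log2FC was 0.15. The gene rests on 43 to 59 reads per library, so the spread within 5xFAD was smaller than counting error alone. Of the 11 other S100 genes 6 were tested, of which 4 had higher and 2 lower values with 0 past the threshold. S100b, the astrocyte calcium-binding protein, had a log2FC of 0.08 (SE 0.07), and S100a10, an annexin partner, one of 0.09 (SE 0.10).

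Id3 (ENSMUSG00000007872.4), an inhibitor of helix-loop-helix transcription factors and a target of BMP signals, read 158, 195 and 169 normalized counts in WT and 157, 139 and 180 in 5xFAD. WT 63 was the highest and 5xFAD 65 the lowest, with overlap between the groups and a log2FC of −0.13 (SE 0.14, 95% interval −0.44 to 0.17). It was −0.045 without 5xFAD 65 and −0.23 without 5xFAD 79. Of 20 other genes of BMP to Id signalling, all were tested, of which 16 had higher and 4 lower values, where 50.2% of all tested genes were higher. Of the 20, 1 was lower without overlap (Bmp2, a ligand, named after its values were seen), where 3.70% of all tested genes were. None passed or had an unadjusted limma p under 0.05, and the median log2FC was 0.079. The BMP antagonist Chrd had one of 0.27 (SE 0.21), which was 0.048 without WT 62 and 0.48 without WT 63. The inhibitor Smad7 and the mediator Smad1 had 0.11 (SE 0.09) and 0.08 (SE 0.08).

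Ggta1 (ENSMUSG00000035778.18), the enzyme that adds alpha-galactose to glycans and a gene of the inflammatory reactive state, read 69.6, 59.4 and 59.2 normalized counts in WT and 68.2, 68.6 and 69.0 in 5xFAD. WT 62 was above all 5xFAD libraries, so the groups overlapped, and the log2FC was 0.13 (SE 0.16, 95% interval −0.24 to 0.50). Without WT 62 it was 0.21. It rests on 58 to 75 reads per library. Its 3 relatives, A3galt2, Abo and Gbgt1, were under the filter, at 0 to 13.9 normalized counts.

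**Figure D3:**
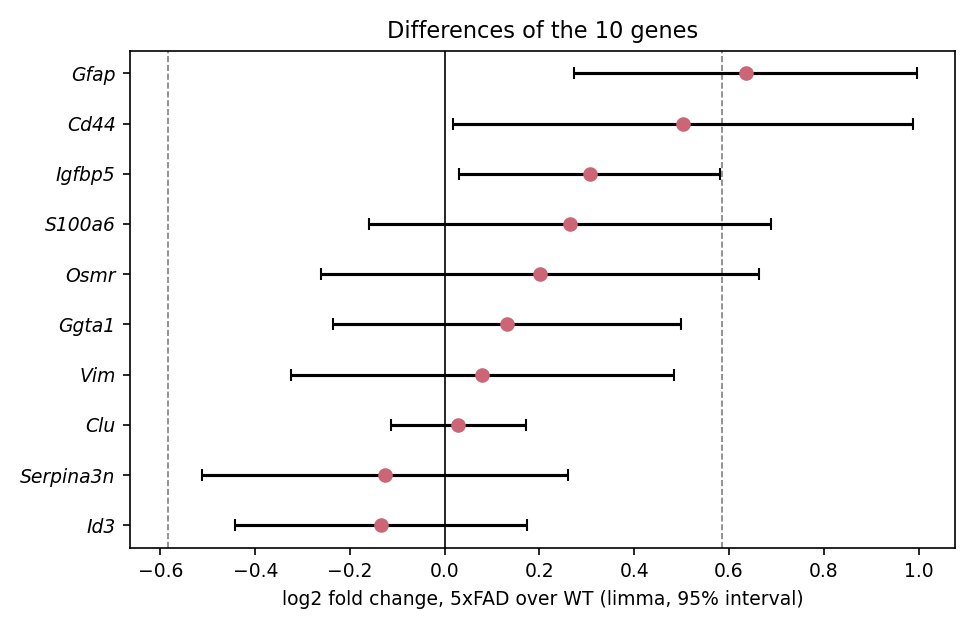
Log2 fold change of 5xFAD over WT for the 10 genes with its 95% interval from limma, where dashed lines mark a 1.5-fold difference. The interval of Gfap runs from 0.27 to 1.00, those of Cd44 and Igfbp5 start just above 0, and those of the other 7 include 0.

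Across the set, 8 of the 10 genes had higher and 2 lower means in 5xFAD, against 50.2% of all tested genes with a value above 0. The median log2FC of the 10 was 0.17, against 0.00053 over all 16411. An unadjusted p under 0.05 was reached by 3 of the 10, Gfap, Cd44 and Igfbp5, all higher and none lower, against 1.27% of tested genes in the higher direction, 1.05% in the lower and 2.32% in either. A log2FC of 0.25 or more was found for 4 of the 10, Gfap, Cd44, Igfbp5 and S100a6, against 7.35% of tested genes in that direction and 13.8% in either. Groups without overlap and higher in 5xFAD were found for Gfap and S100a6, 2 of the 10, against 3.72% of tested genes, and none of the 10 was lower without overlap, against 3.70% (7.42% in either direction). In the main limma fit the 95% interval excluded a 1.5-fold difference for 6 of the 10, Vim, Serpina3n, Igfbp5, Id3, Clu and Ggta1, and for 71.4% of all genes. For Igfbp5 the upper end of the interval was 1.497-fold, barely under that bound. Without WT 62, WT 66 or 5xFAD 64, Gfap was the 1 gene of the 10 with an unadjusted p under 0.05, while Gfap and Cd44 had one without 5xFAD 65, Gfap and Igfbp5 without 5xFAD 79, and the same 3 genes without WT 63. The number with higher means was 7 or 8 in all 6 fits that left out a library.

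Within the groups, WT 63 held the highest WT value for 6 of the 10 genes, while WT 62 and WT 66 held the lowest for 5 and 4. In 5xFAD the highest value fell in 5xFAD 79 for 5 genes and in 5xFAD 64 for 4. 5xFAD 79 was above the 6-library mean for 9 of the 10 genes, Vim being the exception, and WT 66 was above it for 2, S100a6 and Id3. Per kilobase of exon in GENCODE M21, the level over all libraries was highest for Clu at 2542 normalized counts, followed by Gfap at 521, Igfbp5 at 357, Serpina3n at 142, Vim at 105 and Id3 at 93.0. S100a6 at 38.2, Ggta1 at 13.9, Cd44 at 8.70 and Osmr at 7.18 were the least abundant. The genes with larger differences thus lay at both ends of the range of levels.

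Other reactive astrocyte genes, outside the 10, had medians close to that of all genes. Over these and the pathway lists described above, an unadjusted limma p under 0.05 was reached by C4b, Serping1 and Igfbp7, all higher. They were 1 of 14, 1 of 10 and 1 of 9 tested genes of their lists, and the other lists held none. Over all tested genes, 2.32% had such a p in either direction and 1.27% in the higher. The edgeR and DESeq2 tests called no gene of these lists. Of 14 other genes of disease-associated astrocytes, 6 had higher and 8 lower values, with a median log2FC of −0.0049 and 0 past the threshold. Complement C4b read 228, 258 and 291 normalized counts in WT and 430, 425 and 340 in 5xFAD without overlap, with a log2FC of 0.62 (SE 0.12) and adjusted p-values of 0.9995 with limma and 0.126 with DESeq2. It was the 1 of these 14 genes that was higher without overlap, against 3.72% of all tested genes. The actin-severing protein gelsolin (Gsn) and the tetraspanin Cd9 had log2FCs of 0.15 (SE 0.11) and 0.10 (SE 0.08). The lysosomal protease Ctsb read 9493 to 10394 and the water channel Aqp4 read 6098 to 7945 normalized counts over the 6 libraries.

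Of 8 further genes raised in all kinds of reactive astrocytes, 4 were tested and 0 passed, with the asparaginase Aspg at a log2FC of 0.37 (SE 0.29). The 4 under the filter, named after their values were seen, were the iron carrier Lcn2, highest in WT 62 and at 0 to 3.12 elsewhere, Steap4 at 0.929 to 7.00, Timp1 at 0 to 3.47 and Cxcl10 at 0 to 4.00 normalized counts. Of 11 genes of the inflammatory A1-type state, 10 were tested, of which 6 had higher and 4 lower values with a median of 0.0068. The complement inhibitor Serping1 read 52.9, 63.7 and 73.5 normalized counts in WT and 99.4, 131 and 78.0 in 5xFAD without overlap, with a log2FC of 0.67 (SE 0.22), not past the limma threshold. It was the 1 of these 10 tested genes that was higher without overlap, against 3.72% of all tested genes. Of 12 A2-type genes 9 were tested, of which 7 had higher and 2 lower values with a median of 0.090 and 0 past the threshold. The glycosyltransferase B3gnt5 had the widest spread among them, at 10.2, 95.5 and 22.5 normalized counts in WT and 64.7, 124 and 36.0 in 5xFAD. Its log2FC was 1.19 (SE 0.88) and ranged from 0.50 to 2.05 when a library was left out. The libraries ran in the same order as for Gdf10, and the cells behind the B3gnt5 values were not tested.

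**Figure D4:**
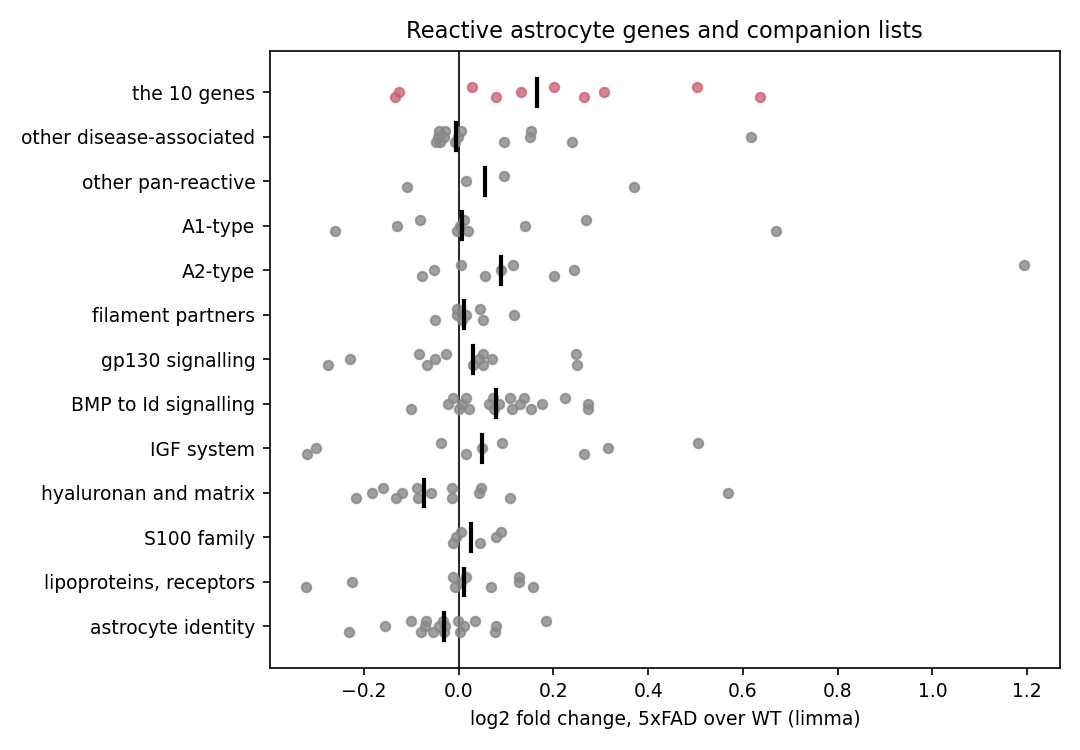
Log2 fold change of 5xFAD over WT (limma) for each tested gene of the set (red) and of companion lists (grey), with the median of each list as a black bar. The median of the 10 genes lies at 0.17, and those of the other 12 lists lie between −0.072 and 0.090.

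Astrocyte identity markers, which check the amount of astrocyte transcript in the punch, had a median close to 0. Of 18 markers 6 had higher and 12 lower values, the median log2FC was −0.032, 0 passed, and the interval excluded a 1.5-fold difference for 17. Their summed level was 170392 to 191829 normalized counts in WT and 174658 to 183084 in 5xFAD. The amino acid transporter Slc7a10 had the smallest p, at a log2FC of −0.23 (SE 0.10), and the glutamate transporter Slc1a2 had −0.10 (SE 0.08). Centring each library on these markers left the Gfap log2FC at 0.66, that of Cd44 at 0.53 and that of Igfbp5 at 0.33.

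Other cell types that express some of the 10 genes also differed between libraries. All 10 meningeal fibroblast markers had higher means in 5xFAD, where 50.2% of all tested genes did, with a median log2FC of 0.45. Groups higher in 5xFAD without overlap were found for 3 of the 10, against 3.72% of tested genes. An unadjusted limma p under 0.05 was reached by 4, against 1.27% of tested genes in the higher direction. These were the matrix genes Lum, Col3a1, Fmod and Col1a1, with log2FCs of 1.07 (SE 0.25), 0.72 (SE 0.27), 0.62 (SE 0.23) and 0.41 (SE 0.14), none past the threshold in the limma test. The summed fibroblast level was 1018, 1036 and 1314 normalized counts in WT and 1351, 1897 and 1157 in 5xFAD, with overlap and with 5xFAD 65 highest, and no marker was at 0 in any library. Fibroblasts also express Vim, Cd44, S100a6 and Igfbp5, and their part in those values was not tested. Gfap was lowest among the 5xFAD libraries in 5xFAD 65, where fibroblast markers were highest, and without that library its log2FC was 0.71. That observation rests on 5xFAD 65 alone, and a link between fibroblasts and the Gfap values was not tested.

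Ependymal markers were spread within the groups, with a sum of 1332, 1240 and 1817 in WT and 1239, 2045 and 847 in 5xFAD. Of the 8 markers, 1 had a higher and 7 a lower value, with a median log2FC of −0.28. Endothelial and mural markers summed to 6589 to 7071 in WT and 6692 to 7273 in 5xFAD, with 11 of 14 higher and 0 past the threshold, and microglia markers summed to 3921 to 4456 and 4056 to 4476. Oligodendrocyte markers summed to 214668 to 271643 in WT and 207199 to 323994 in 5xFAD, with the highest value in 5xFAD 79, and 9 of 9 had a higher mean in 5xFAD with a median log2FC of 0.090 and 0 past the limma threshold. Of the 6 noradrenergic markers, 5 had higher and 1 a lower value, with a median log2FC of 0.24 and 0 past the threshold. Their sum was 9801, 11019 and 5823 normalized counts in WT and 8424, 12350 and 9280 in 5xFAD, lowest in WT 66, with overlap. Choroid plexus markers summed to 6524 to 10141 in WT and 6129 to 8873 in 5xFAD, and Kcnj13 was at 0 in 3 libraries. Ttr made up only a small part of these sums. Of 8 choroid plexus markers 5 were tested, of which 1 had a higher and 4 a lower value, with a median log2FC of −0.32. The part of these cells in the values of the 10 genes was not tested.

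**Figure D5:**
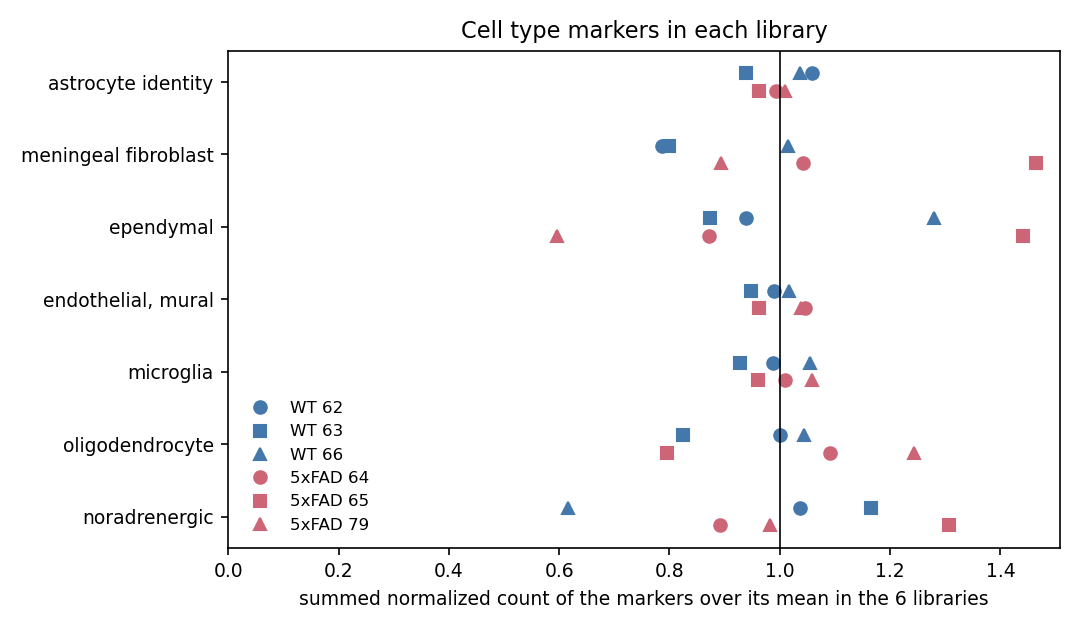
Summed normalized count of the markers of 7 cell types in each library, divided by its mean over the 6 libraries (horizontal axis, from 0), with WT libraries in blue and 5xFAD libraries in red. Astrocyte markers lie close together, while fibroblast and ependymal markers are highest in 5xFAD 65 and noradrenergic markers lowest in WT 66.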

How the data were processed

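Poly-A RNA of 3 WT and 3 5xFAD locus coeruleus punches was sequenced after TruSeq library preparation on an Illumina NovaSeq instrument, per the labels' protocols, and STAR, RSEM, DESeq2 and the build mm39 are named in the submitters' processing notes. The sources used here do not give the counting strand or annotation, and overlapping genes are therefore uncertain. Column names carry a different lane-like suffix for each library, so a lane and its library cannot be told apart. All WT suffixes come before all 5xFAD suffixes, so an effect along their order cannot be told apart from genotype. The deposited table is named as TPM, but its library columns hold a signal that the authors made by dividing gene counts by 1 size factor per library. In each column 100% of the values were whole multiples of 1 step (tolerance 0.001), and recomputed median-of-ratios size factors equalled the steps within 3.11e-15. Per the file headers, it also holds a log2 fold change by the authors (sign turned here to 5xFAD over WT), its standard error, a test score and a p-value before and after adjustment. Symbols came from a table of gene names, which paired 91.5% of identifiers.

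Genes that reached 10 normalized counts in 3 or more libraries were tested as log2(value + 1) by limma 3.58.1 under R 4.3.3 (trended variance, robust moderation), with Benjamini-Hochberg adjustment over 16411 genes at 0.05. The added 1 understates fold changes of low genes. The fit was run on simulated data with planted changes, where their direction and the median size of the larger ones were checked. That check does not show how many real differences the threshold misses. Alternatives used edgeR 4.0.16 and DESeq2 1.42.0 on recovered reads, pseudocounts of 0.5 and 5, no filter or a floor of 50, no variance trend, quantile normalization, centring on astrocyte markers, and leaving out each library. The ratios of Gfap to other genes were compared with exact permutation tests (scipy 1.17.1). The median half-width of the 95% interval was 0.254 on the log2 scale.

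The 10 genes, the companion and marker lists, the tests and the rule for named genes were chosen with earlier results of these data known. From each list, up to 4 genes with the smallest unadjusted p and up to 2 with the highest level could be named, besides defining markers and the 5 genes most like Gfap. Not every gene that the rule allows is named. The libraries are numbered, but nothing says that each came from a separate animal, so the p-values measure only the spread between these samples, which may be technical.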

Additional observations from a re-analysis of the deposited data

How the results depend on the processing

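Over 15 alternatives, the number of all genes called by limma (1, Thy1) was 0 without the variance trend and robust moderation, with 535 genes at an unadjusted p under 0.05. It was 1 without a filter (Mme in place of Thy1) and without WT 66 (2210418O10Rik in place of Thy1), and 4 with DESeq2 on recovered reads, namely Gfap, Mme, Slc15a2 and Thy1, and ranged from 0 (without WT 62, WT 63, 5xFAD 64 or 5xFAD 79) to 2 (without 5xFAD 65). The number of the 10 genes called was 0 in limma and edgeR fits and 1, Gfap, with DESeq2, where the log2 fold change was 0.62 (adjusted p = 0.0106). Limma adjusted p-values of Gfap ran from 0.235 without WT 63 to 1.000 without WT 62. Of 150 log2 fold changes of the 10 genes under alternatives, 146 kept their sign and their side of the threshold and 3 turned, Vim to −0.0913 without 5xFAD 65 (range over left-out libraries up to 0.223) and Clu to −0.0205 without WT 66 and −0.00570 without 5xFAD 79 (up to 0.0692). The other 8 genes kept their sign throughout. Of 461 log2 fold changes of companion genes, 4 turned, Nes to −0.0146 without 5xFAD 79 (up to 0.273), Stat3 to −0.0106 without WT 66 (up to 0.110), and Socs3 to 0.0800 and Serpina3g to 0.0318 without 5xFAD 64 (down to −0.577 and −0.334). The cause was not tested. Depth limits Cd44, S100a6, Ggta1 and Osmr, with 43 to 114 reads per library. No paired analysis was possible because the groups share no library number.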
